A study of Mus musculus with 10 samples.

Results

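A mouse culture after 32 days of reprogramming, taken without sorting its cells, was compared with established induced pluripotent stem cells (iPSC) kept in 2i and serum. The members are the arrays that the sample titles place in these groups, 2 for the day 32 culture and 2 for the iPSC, which makes 4 of the 10 arrays of the series. The culture was started from secondary MEFs, mouse embryonic fibroblasts whose genome already holds the reprogramming factors of Yamanaka (Pou5f1, Klf4, Sox2 and Myc) under an inducible switch, and these factors had been switched on throughout. The reference iPSC had grown in 2i, which pairs an inhibitor of the ERK pathway with an inhibitor of the kinase GSK3, together with serum. The other arrays hold a Sox2-positive and a Sox2-negative fraction of a day 32 culture, separated by the RNA the cells contain (RNA FACS), and iPSC grown together with MEFs. The labels enter both the culture and the reference as iPSC, give standard mouse embryonic stem cell medium where nothing else is noted, and name no strain, transgene system, inducer or clone. They also do not say whether replicates a and b of a group were separate cultures, and p-values therefore reflect nothing but the spread among these samples, which may be technical.

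Reprogramming factors turn a fibroblast into a pluripotent cell in steps: genes of the fibroblast are silenced, cells take on an epithelial form, and the cell's own pluripotency network is switched on. Only some cells complete these steps, and a culture can hold pluripotent colonies beside cells that stopped on the way or took another course. In 2i, the ERK inhibitor removes the signal that primes stem cells for differentiation, and the GSK3 inhibitor stabilises beta-catenin and so raises target genes of Wnt signalling.

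Values are deposited log2 expression values of Affymetrix arrays, on which 1 unit is a factor of 2 and values under 4 were treated as not above background. A gene was tested when a probe set for it exceeded 4 on at least 2 of the 10 arrays, which left 8599 genes, and was called when its Benjamini-Hochberg adjusted p from limma was under 0.05. Genes dim in the iPSC were tested only where other arrays exceeded 4. In lists with many untested members, this filter sets the direction of the tested ones in part. The arrays carry no counts, and their number limits the precision: 2 arrays set against 2 allow no exact two-sided permutation p smaller than 0.33. The median value was 5.28 to 5.36 on the 4 arrays, and replicates differed by a median of 0.30 in the day 32 culture and 0.26 in the iPSC. Control probe sets differed between the groups without overlap. 18S ribosomal RNA read 6.55 and 6.20 in day 32 a and b and 5.25 and 5.96 in 2i a and b, and Actb read lower at its 5' than at its 3' end, as broken or short copies do, by 3.32 and 3.88 against 2.94 and 2.70. The same gap for Gapdh was 1.47 and 2.25 against 1.13 and 0.84. The part of these differences in the results was not tested.

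The day 32 culture expressed the pluripotency markers of the iPSC, mostly at lower values, although none of these markers was called. Beside them it expressed many genes that were not above background in the iPSC. Of the 8599 genes, 665 (7.73%) were called. Higher in the culture were 450 genes (5.23%), and lower were 215 (2.5%). The rises were the larger changes, with a median of 2.26 log2 units against -1.52 for the falls, while all tested genes together had a median of -0.11. Of all 8599 tested genes, 4919 had a difference below 0 and 3671 above 0. These shares of all tested genes are the background for the list counts below. Among the genes that rose, 169 lay under 4 on both iPSC arrays. When such dim groups were set to 4, 225 rises and 47 falls were still at least 4-fold, and 31 rises and 2 falls at least 16-fold. Every called gene had its 2 culture arrays on one side of both iPSC arrays, which was also true of 2268 (26.4%) of all tested genes in the upward and 3092 (36%) in the downward direction. The calls depended on single arrays: 90 of the 450 rises and 15 of the 215 falls were called again whichever of the 4 arrays was left out, although the sign of all 665 stayed the same. Without day 32 a the count was 127, without day 32 b 696, without 2i a 259 and without 2i b 208. Leaving out an array leaves 1 in its group and widens the standard error, so a call can be lost without any change in the difference. For Gata2, whose call was lost with every omission, the difference stayed between 1.91 and 2.03. In bulk samples, fewer cells of a type and less RNA per cell cannot be told apart.

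Pou5f1 and Sox2, the pair of transcription factors at the centre of the pluripotency network, were bright in both groups. Pou5f1 read 10.66 and 10.74 in day 32 a and b and 10.72 and 10.78 in 2i a and b, a difference of -0.05 (SE 0.36, limma adjusted p = 0.95). The values of the groups overlapped. Sox2 read 11.50 and 12.34 against 12.50 on both iPSC arrays (difference -0.58, SE 0.39, adjusted p = 0.398), and the difference was -0.16 without day 32 a and -1 without day 32 b. Klf4, which belongs to the naive state as well as to the factor set, read 7.67 and 9.49 against 10.78 and 9.89 (-1.76, SE 0.55, adjusted p = 0.0891), and the groups did not overlap. The difference of Klf4 was -0.84 without day 32 a (adjusted p = 0.507) and -2.67 without day 32 b, where it was called (0.0116). Myc, the growth-promoting factor, read 6.05 and 6.25 in the culture and 4.86 and 7.54 in the iPSC, so the iPSC replicates lay on both sides of the culture. None of the 4 factors was called by limma (1 had an unadjusted p under 0.05, Klf4), and whether these values include RNA of the transgenes was not tested.

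Genes of the naive and general pluripotency lists mostly lay below the iPSC. The share called lower was 11.8% of the naive and 20% of the general list, against 2.5% of all tested genes. Of 17 tested genes of naive pluripotency, the ground state that 2i favours, 0 were called higher and 2 lower, 16 had a difference below 0, and the median was -1.12. Of 15 genes of the general pluripotency list, 0 were called higher and 3 lower, all 15 had a difference below 0, and the median was -1.15. Tfcp2l1, a transcription factor of naive cells, fell from 10.97 and 11.16 in the iPSC to 8.63 and 9.86 in the culture (limma adjusted p = 0.0273), and Pecam1, an adhesion molecule on naive stem cells, from 6.33 and 5.76 to 3.98 and 4.74 (0.0296). Gdf3, a TGF-beta family ligand of pluripotent cells, fell from 11.22 and 11.60 to 8.42 and 10.10 (adjusted p = 0.0342). Foxd3, which keeps stem cells undifferentiated, fell by 1.63 (0.0319), and Sall1, a zinc-finger factor, by 1.45 (0.0339). In all 5 the lower culture value was that of day 32 a. Without day 32 b, 8 naive and 5 general genes were called lower, and without any of the other 3 arrays 0 were. Without day 32 a the adjusted p was 0.183 for Tfcp2l1, 0.236 for Pecam1, 0.198 for Gdf3, 0.219 for Foxd3 and 0.263 for Sall1. The 5 calls were also lost without 2i a (0.0864 to 0.146) and without 2i b (0.0737 to 0.194). The difference of Tfcp2l1, Gdf3 and Foxd3 shrank by more than 1.5 times without day 32 a, to -1.21, -1.31 and -1.06.

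The markers that define a pluripotent cell were all present in the culture. Each of the 10 markers checked was at 4 or above on every one of the 4 arrays, with a median over the markers of 10.56 and 11.42 in day 32 a and b and 11.86 and 11.82 in 2i a and b. Nanog, a core factor of the network, read 11.13 and 11.66 against 12.22 and 12.28. Zfp42 (Rex1), a marker of naive cells, read 10.75 and 11.81 against 12.35 and 12.54, and Esrrb, a naive transcription factor, 9.75 and 11.17 against 11.84 and 11.71. For these 3 genes both culture values lay below both iPSC values, and none was called (limma adjusted p = 0.182, 0.152 and 0.135). Dppa3, a gene of early embryos and germ cells, overlapped between the groups, at 6.07 and 7.50 against 6.09 and 6.90.

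Lists next to pluripotency held few calls. The share called lower was 11.1% of the primed epiblast list, against 2.5% of all tested genes. The share called higher was 5.88% of the chromatin list and 3.03% of the cell cycle list, against 5.23% of all tested genes. Of 9 genes of the primed epiblast, the state that follows the naive one, 0 rose and 1 fell: Eomes, a T-box factor of early mesoderm and trophoblast, from 6.78 and 6.71 to 3.75 and 5.21 (limma adjusted p = 0.0406). The adjusted p of Eomes was 0.297 without day 32 a, 0.144 without 2i a and 0.176 without 2i b. Of 11 germ cell and 2-cell stage genes 0 were called by limma (2 had an unadjusted p under 0.05), with 5 differences above and 6 below 0. Of 17 genes of DNA methylation and chromatin 1 rose, Bmi1, a Polycomb protein that represses the Ink4 locus, from 7.11 and 6.50 to 8.71 and 8.19 (adjusted p = 0.0211), while the median of the list was -0.60. Bmi1 lost its call without day 32 a (0.179) and without 2i b (0.151). Of 33 cell cycle and replication genes 28 had a difference below 0 with a median of -0.55, against 4919 of all 8599 tested genes. Of the 33, 1 rose and 1 fell. Ccnd2, cyclin D2, rose from 2.50 and 5.24 to 8.96 and 8.04 (0.0259). Mcm5, a subunit of the replicative helicase, fell from 9.72 and 9.79 to 8.20 and 8.76 (0.0224). Both calls were lost without day 32 a (0.198 and 0.192) and without 2i a (0.121 and 0.0898), and that of Mcm5 also without 2i b (0.132).

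**Figure D1:**
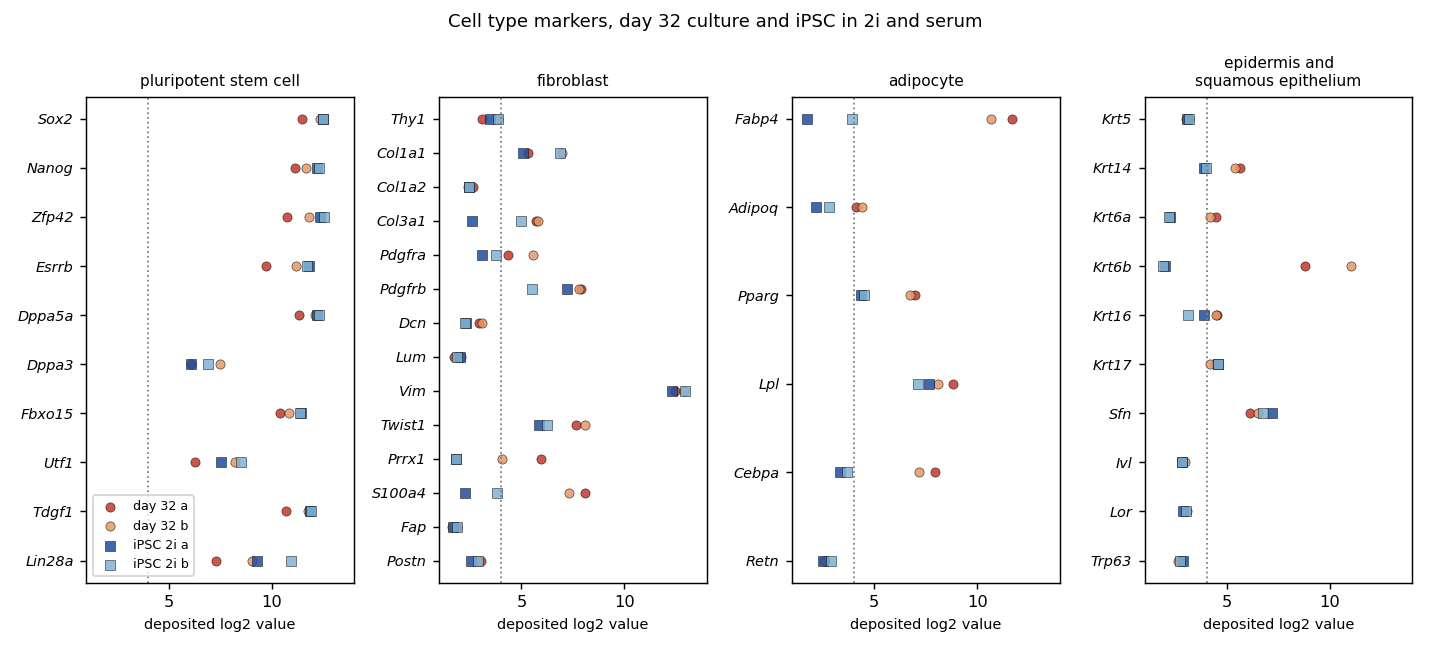
Deposited log2 values of the cell type markers checked, for pluripotent stem cells, fibroblasts, adipocytes and squamous epithelium, on the 2 arrays of the day 32 culture (circles) and of iPSC in 2i and serum (squares); the dotted line is the level of 4 under which a value was treated as background. Pluripotency markers are high on all 4 arrays, while Fabp4, Cebpa, S100a4 and Krt6b are above 7 in the culture and under 4 in the iPSC.

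Fibroblast markers were present in part. Of 14 fibroblast markers, 8 were at 4 or above on both culture arrays and 4 on both iPSC arrays, and the median over the markers was 4.84 and 4.81 in day 32 a and b and 2.60 and 3.77 in 2i a and b. The surface antigen Thy1 (3.07 and 3.84), the collagen chain Col1a2 (2.67 and 2.40), the matrix proteins Dcn, Lum and Postn and the protease Fap all stayed under 4 in the culture. Col1a1, the main chain of collagen I, read 5.33 and 6.96 in the culture and 5.07 and 6.86 in the iPSC, and the groups overlapped. S100a4, a calcium-binding protein of motile mesenchymal cells, stood apart, at 8.07 and 7.33 against 2.27 and 3.79. It rose at least 13-fold (limma adjusted p = 0.00172) and was called whichever array was left out. Prrx1, a transcription factor of limb and craniofacial mesenchyme, read 5.95 and 4.04 in the culture and 1.80 and 1.82 in the iPSC. Smooth muscle actin, Acta2, read 6.70 and 7.54 in the culture but 2.71 and 8.03 in 2i a and b, so 1 iPSC array carried as much of it as the culture.

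Fabp4, Zic1 and Krt6b had the largest rises. Fabp4, the fatty acid binding protein of adipocytes and endothelium, read 11.68 and 10.68 in day 32 a and b and 1.71 and 3.92 in 2i a and b. Both culture values lay far above the median of their arrays while both iPSC values lay under 4, which gives a rise of at least 145-fold (limma adjusted p = 0.000943). Of its other probe sets, 1 read 9.61 on both culture arrays and 2.00 and 3.63 in the iPSC, and 1 stayed under 4 on all 4 arrays. Zic1, a zinc-finger factor of the neural plate and somites, read 10.76 and 10.07 against 2.01 and 2.82, at least 85.3-fold (adjusted p = 0.00118). Krt6b, a keratin of stressed and wounded epidermis, read 8.76 and 11.03 against 1.98 and 1.88, at least 59.5-fold (0.0024). Of the 12 largest rises, it was the one higher in day 32 b than in day 32 a. Krtdap, a secreted protein of differentiating keratinocytes, read 10.74 and 9.83 against 4.01 and 3.25, with 1 of the iPSC values under 4 (0.000943). Calcrl, the receptor subunit for adrenomedullin and CGRP, read 10.44 and 7.58 against 2.76 and 2.62, at least 32.2-fold (0.00298). Cd109, a co-receptor that restrains TGF-beta signalling, read 9.61 and 7.99 against 3.07 and 2.90, at least 27.9-fold (0.00335). These 6 genes were called whichever of the 4 arrays was left out.

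The other genes among the 12 largest rises were Egr2, described below with the ERK genes, and 5 whose calls were lost when some single arrays were left out. Cd44, the hyaluronan receptor that marks fibroblasts and cells early in reprogramming, read 9.93 and 7.96 against 2.39 and 3.67, at least 30.8-fold (limma adjusted p = 0.00832). Its call was lost without day 32 a (0.0775) and without 2i a (0.0539). Ces2g, a carboxylesterase, read 11.04 and 8.13 against 2.84 and 3.23, at least 48-fold (0.0149). Cldn11, a claudin of myelin and Sertoli cells, read 10.13 and 6.62 against 2.13 and 2.42, at least 20.8-fold (0.0259). Ptprz1, a receptor phosphatase of neural progenitors and glia, read 9.14 and 7.97 against 2.23 and 2.75, at least 23.5-fold (0.0168). Mal, a membrane proteolipid of myelin and epithelia, read 9.29 and 8.39 against 3.40 and 2.54, at least 28.6-fold (0.0145). For these 4, both culture arrays were far above both iPSC arrays, and the calls were lost on leaving out any array but day 32 b. Without day 32 a the adjusted p was 0.118 for Ces2g, 0.199 for Cldn11, 0.141 for Ptprz1 and 0.118 for Mal, and without an iPSC array it was between 0.0502 and 0.121.

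**Figure D2:**
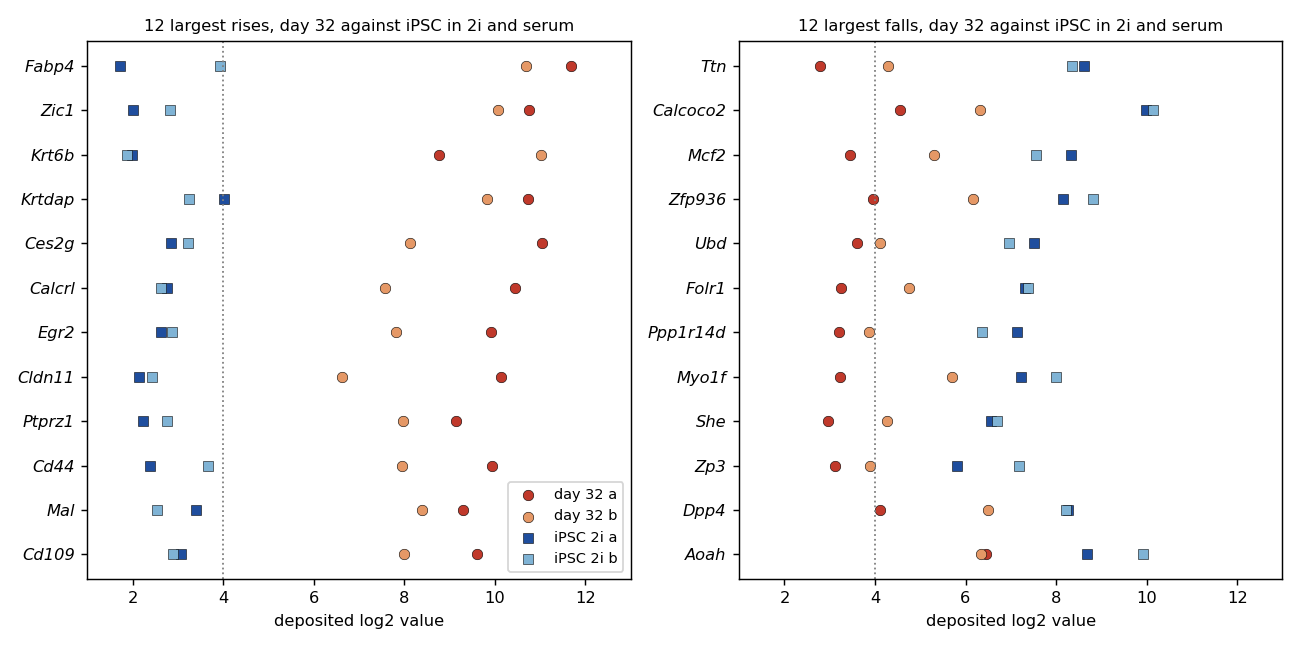
Deposited log2 values of the 12 largest rises (left) and the 12 largest falls (right) among called genes, on the 2 arrays of the day 32 culture (circles) and of iPSC in 2i and serum (squares); the dotted line marks 4, the level treated as background. All rises lie above 6 in the culture and near or under 4 in the iPSC, and for 11 of the 12 falls the lower culture value is that of day 32 a.

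The falls were smaller and fewer, and several of the genes that fell were bright only in the iPSC in 2i and serum. On the arrays of iPSC with MEFs, Ttn (3.62 and 3.01), She, Myo1f, Ppp1r14d, Ubd and Mcf2 lay under 4 as well. Calcoco2 (9.60 and 9.36) and Zfp936 (9.34 and 9.32) were bright there, and Folr1, Zp3, Dpp4 and Aoah lay between 3.80 and 6.81. Those arrays had 18S at 11.35 and 12.82, so levels were not set against each other. Ttn, titin, the giant spring protein of muscle, read 2.78 and 4.28 in day 32 a and b and 8.62 and 8.36 in 2i a and b, with 1 of the culture values under 4 (limma adjusted p = 0.00313). Another probe set of Ttn fell by 5.19. No general muscle profile accompanied it in the iPSC: of 9 muscle markers checked, 7 were under 4 on both iPSC arrays. Calcoco2, a receptor that brings cargo to autophagosomes, fell from 9.99 and 10.14 to 4.55 and 6.32 (0.0018). Ubd, a ubiquitin-like modifier induced by cytokines, fell from 7.52 and 6.95 to 3.60 and 4.12 (0.00118). Folr1, a folate receptor of stem cells and epithelia, fell from 7.31 and 7.39 to 3.26 and 4.75 (0.00451). She, an SH2 domain adaptor, fell by 3.02 (0.00309), and Ppp1r14d, an inhibitor of protein phosphatase 1, fell at least 6.75-fold (0.0018). These 6 falls were called whichever array was left out. The other 6 were the proto-oncogene Mcf2, the zinc-finger gene Zfp936, the unconventional myosin Myo1f, the egg coat protein gene Zp3, the peptidase Dpp4 and the lipopolysaccharide-degrading enzyme Aoah. Zp3 fell at least 5.66-fold, and the others fell by 3.57 (Mcf2), 3.42 (Zfp936), 3.14 (Myo1f), 2.94 (Dpp4) and 2.90 (Aoah), with limma adjusted p between 0.00615 and 0.0382. Without 2i a the call of Mcf2 was lost (0.0579), without 2i b that of Zfp936 (0.093), and without day 32 a that of Zp3 (0.0626). Dpp4 and Myo1f were called with day 32 b left out but with no other array left out (up to 0.214 and 0.167), and their differences shrank to -1.74 and -1.91 without day 32 a. Aoah was called on leaving out 2i a only, and reached an adjusted p of 0.171 without 2i b.

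Promoter sequences were read for the genes that rose as a class, and 4 are shown, 3 of which hold a letter match and 1 of which holds none. The letters were TGACTCA, the core site of the AP-1 factors that include Fos and Fosl1, TATAAA, the TATA box, and CTTTGAA or CTTTGAT, sites of the TCF/LEF factors that carry the Wnt signal, on both strands of the window from 250 bases before to 50 after the start given by RefSeq. Sequences are RefSeq's on build GRCm38.p6, read 5′ to 3′ on the strand of the gene; only the 250 bases upstream are printed, and capitals mark the matches. 
Krtdap: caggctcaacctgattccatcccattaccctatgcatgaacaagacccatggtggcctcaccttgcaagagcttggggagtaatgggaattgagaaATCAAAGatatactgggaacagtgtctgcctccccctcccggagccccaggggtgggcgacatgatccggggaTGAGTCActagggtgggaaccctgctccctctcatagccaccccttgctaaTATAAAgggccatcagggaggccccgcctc
Col6a1: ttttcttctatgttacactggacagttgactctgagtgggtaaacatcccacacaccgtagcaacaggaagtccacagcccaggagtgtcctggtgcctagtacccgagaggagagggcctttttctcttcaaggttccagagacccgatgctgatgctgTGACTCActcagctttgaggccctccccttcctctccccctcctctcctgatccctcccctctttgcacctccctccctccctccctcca
Lif: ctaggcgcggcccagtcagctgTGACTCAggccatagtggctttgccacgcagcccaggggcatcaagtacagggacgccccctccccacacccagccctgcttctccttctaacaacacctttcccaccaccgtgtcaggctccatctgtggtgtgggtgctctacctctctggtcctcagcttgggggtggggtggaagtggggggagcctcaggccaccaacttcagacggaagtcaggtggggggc
Zic1: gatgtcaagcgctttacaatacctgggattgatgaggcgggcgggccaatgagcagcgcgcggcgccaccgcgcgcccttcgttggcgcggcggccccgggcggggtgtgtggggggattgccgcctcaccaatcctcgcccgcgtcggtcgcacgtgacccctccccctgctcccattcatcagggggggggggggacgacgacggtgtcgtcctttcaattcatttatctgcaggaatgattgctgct
 Krtdap lies at chr7:30787655-30787904 on the plus strand and has a TCF/LEF match that begins 154 bases, an AP-1 match that begins 81 bases and a TATA box that begins 30 bases before the start, the first pair on the opposite strand. Col6a1, at chr10:76726045-76726294 on the minus strand, has an AP-1 match 90 bases before the start, and Lif, at chr11:4257318-4257567 on the plus strand, has one 228 bases before it. Zic1, at chr9:91365769-91366018 on the minus strand, holds no match and is rich in CpG, with 0.97 of the number its base composition would give, against 0.3, 0.13 and 0.23 for Krtdap, Col6a1 and Lif. A window was listed for 358 of the 450 genes that rose, 164 of the 215 that fell and 7025 of all tested genes. The AP-1 letters were found in 8.1%, 2.44% and 3.33% of these windows, and in 5.17% of all listed windows. The 4 printed promoters, 3 of them with an AP-1 match, do not reflect the share among the genes that rose. The TATA box was found in 10.6%, 11% and 6.8%, and the TCF/LEF letters in 8.94%, 6.1% and 5.86%, with 14.2% and 8.77% of all listed windows. The median ratio of observed to expected CpG was 0.647 for the genes that rose, 0.737 for those that fell and 0.784 for all tested genes. These shares are a description, and a match is not evidence of a bound site.

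The ERK genes were set against a reference grown with an ERK inhibitor, and whether the inhibitor accounts for their differences was not tested. Of 20 tested genes of ERK output and feedback, 8 rose and 1 fell, with a median of 0.82 against -0.11 for all tested genes. Egr2, an early response transcription factor, read 9.92 and 7.82 in day 32 a and b and 2.62 and 2.87 in 2i a and b, at least 29.2-fold (limma adjusted p = 0.00394), and another probe set read 10.19 and 9.06 against 2.65 and 2.77. Fos, an AP-1 subunit induced within minutes of a growth signal, read 10.03 and 9.99 against 6.47 and 5.39 (a rise of 4.08, adjusted p = 0.00448). Fosl1, an AP-1 subunit of sustained ERK activity, read 7.68 and 7.08 against 2.97 and 3.99, at least 10.4-fold (0.0018). In all 3 the groups were far apart, and the calls held whichever array was left out. Phlda1, a further ERK target, rose from 7.13 and 6.35 to 10.22 and 9.42 (0.00658), a call lost without day 32 a (0.0662) and without 2i b (0.0508). The other 4 that rose were Jun and Egr1, early response factors like Fos and Egr2, and Spry4 and Spred1, feedback inhibitors of the pathway, by 2.73, 3.97, 2.43 and 1.18. All 4 were lost without day 32 a (0.112, 0.0937, 0.198 and 0.351), Jun and Spred1 also without 2i b (0.0901 and 0.173), Spry4 and Spred1 without 2i a (0.143 and 0.188), and Spry4 without day 32 b (0.141). The difference was 2.59 for Egr1 without 2i b, 1.27 for Spry4 without 2i a and 0.77 for Spred1 without day 32 a. The count of ERK genes that rose was 3 without day 32 a, 5 without 2i b, 6 without 2i a and 7 without day 32 b. Dusp6, the ERK phosphatase often read as a measure of pathway activity, differed by 1.17 without being called (0.138), and Spry2 by 0.14. Etv5, an ETS factor downstream of FGF signalling, went the other way and fell from 5.43 and 5.75 to 4.30 and 4.38 (0.0302), a call that any single omission removed (0.0707 to 0.197). Jun, Egr1, Spry4, Spred1, Dusp6 and Spry2 were picked out after their values were seen. On the arrays of iPSC with MEFs, Egr2 read 6.72 and 5.36, Fos 11.07 and 9.74, Fosl1 3.62 and 4.18 and Etv5 10.24 and 10.32. Etv5 read 8.44 to 9.76 on the sorted day 32 arrays. These arrays differ from the 4 compared here in their control probe sets, so levels were not set against each other.

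Some targets of Wnt signalling fell in the culture, set against a reference grown with a GSK3 inhibitor. Whether the inhibitor accounts for these falls was not tested. Of 9 tested targets 0 rose and 3 fell, with a median of -1.16, while 6 had a difference below and 3 above 0. Cdx1, a caudal homeobox gene, read 2.62 and 3.14 in the culture and 6.28 and 5.18 in the iPSC, at least 3.32-fold lower (limma adjusted p = 0.00386). Notum, a secreted enzyme that inactivates Wnt ligands, read 4.75 and 4.19 against 6.36 and 7.58, a fall of 2.50 (0.00826). Both calls held whichever array was left out, but that of Notum was lost when the 4 compared arrays were fitted alone (0.0691). Axin2, the feedback scaffold of the pathway, read 3.69 and 4.92 against 6.43 and 7.10 (0.0349), and was lost without day 32 a (0.27), 2i a (0.083) and 2i b (0.212). The 3 with a difference above 0 were not called: Ascl2, a helix-loop-helix factor of intestinal stem cells and trophoblast, at 6.59 and 7.51 against 5.06 and 5.75 (1.65, limma adjusted p = 0.115), Lef1, a partner of beta-catenin (0.86, 0.371), and Ccnd1, cyclin D1 (0.80, 0.503). The groups did not overlap for Ascl2. These 3 were named after their values were seen. In iPSC with MEFs, Axin2 read 7.16 and 6.29, Cdx1 3.43 and 3.25, and Notum 3.98 and 4. Those arrays differ from the 4 compared here in their control probe sets, so levels were not set against each other.

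Growth factor and TGF-beta family genes changed in single members. The share called higher was 16.7% of the FGF and growth factor list. It was 13.3% of the BMP and TGF-beta list, against 5.23% of all tested genes. Of 18 FGF and growth factor genes 3 rose: Kitl, the ligand of the receptor Kit, from 1.96 and 3.85 to 8.03 and 6.11, Ereg, a ligand of the EGF receptor, from 2.12 and 2.23 to 6.62 and 5.79, and the receptor Egfr itself from 5.67 and 3.91 to 8.15 and 6.53. The rise was at least 8.4-fold for Kitl (limma adjusted p = 0.0181) and at least 4.61-fold for Ereg (0.00517), and was 2.55 log2 units for Egfr (0.0419). All 3 calls were lost without day 32 a (0.153, 0.0542 and 0.316), without 2i a that of Kitl (0.0914), and without 2i b that of Egfr (0.261), whose difference without 2i b was 1.67. Of 15 BMP and TGF-beta genes 2 rose and 1 fell. Id2, an inhibitor of helix-loop-helix factors induced by BMP, rose from 7.75 and 7.94 to 11.49 and 10.73 (0.0394), and Tgfbr2, a TGF-beta receptor, from 4.45 and 3.82 to 7.86 and 5.92 (0.0386). Smad7, an inhibitor of the same pathway, fell from 8.27 and 8.26 to 6.15 and 7.31 (0.0394). The call of Id2 was lost with every single omission (0.0647 to 0.263), and those of Tgfbr2 and Smad7 on leaving out any but day 32 b (up to 0.268 and 0.26). The differences of Tgfbr2 and Smad7 were 1.78 and -0.95 without day 32 a.

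The matrix genes that rose were the chains of collagen VI and a few secreted proteins. Of 30 collagen and matrix genes 8 rose and 0 fell, with a median of 1.52. Col6a1, a chain of the beaded-filament collagen VI, read 8.02 and 7.25 in the culture and 2.66 and 3.73 in the iPSC, at least 12.4-fold higher (limma adjusted p = 0.00172). Col6a3, its partner chain, read 6.14 and 5.71 against 2.55 and 2.87, at least 3.8-fold (0.000943), and Efemp1, a fibulin of elastic tissue, 10.16 and 9.35 against 5.46 and 5.29, a rise of 4.38 (0.000943). These 3 calls held whichever array was left out. Mmp2, a gelatinase, rose from 5.25 and 5.17 to 7.94 and 7.86 (0.0107), a call lost on leaving out any array but day 32 b (0.0521 to 0.0858). Col6a2, a further chain of collagen VI, and the matrix proteins Bgn, Fbln2 and Tgfbi made up the 8, and without day 32 a their adjusted p was 0.205, 0.171, 0.255 and 0.222. The difference of Bgn, 3.67 with all arrays, was 2.40 without 2i a. The number that rose was 3 without day 32 a, 3 without 2i a, 7 without day 32 b and 10 without 2i b. The other fibrillar collagens were not called and differed widely. Col5a2 read 9.28 and 8.65 in the culture and 2.93 and 6.80 in the iPSC (a difference of 4.10, limma adjusted p = 0.0783), and Col3a1 5.69 and 5.79 against 2.62 and 5 (1.93, 0.142). For both, the 2 culture values lay above both iPSC values, which were themselves far apart. Col1a1, Col5a1 and Col1a2 differed by 0.18, 0.07 and 0.09, and Col1a2 was under 4 on all 4 arrays. The basement membrane chain Col4a2 (2.39, 0.0888) and the matrix glycoprotein Thbs1 (2.54, 0.0738) lay above the iPSC on both culture arrays without being called, while Fn1, fibronectin, differed by -0.83 (0.231). These uncalled genes were chosen after their values were seen.

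The annexins and S100 proteins, calcium-dependent partners of membranes and of the cytoskeleton, had the largest share of called members with the neural crest list. Of 14 tested, 7 rose and 0 fell, with a median of 1.76. Beside S100a4, S100a6 rose from 6.75 and 8.43 to 11.85 and 12.05 (limma adjusted p = 0.0027), and S100a3, a hair follicle member, rose at least 4.52-fold from 2.52 and 2.24 to 6.61 and 5.74 (0.0018). Anxa8, an annexin of stratified epithelium, rose from 5.81 and 5.53 to 10.38 and 9.76 (0.00379). These 4 calls held whichever array was left out, and without day 32 a or 2i a they were the only calls of the list. Anxa1, Anxa2 and Anxa3 made up the 7, with an adjusted p of 0.222, 0.162 and 0.104 without day 32 a and 0.144, 0.111 and 0.0715 without 2i a. Ccn1, a matrix-associated target of YAP and serum, was the 1 of 15 contractile and myofibroblast genes to rise (6.67%, against 5.23% of all tested genes). It rose from 8.42 and 8.39 to 11.51 and 10.82 (0.0025), and it too was called whichever array was left out. Of 13 integrin and adhesion genes 1 rose (7.69%, against 5.23% of all tested genes). This was Cd44, whose call was lost without day 32 a and without 2i a.

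Epithelial genes were present in both groups, and the keratins Krt6b and Krt14 rose in the culture. Of 23 epithelial genes 3 rose and 0 fell, and the median was 0.21. Cdh1 (E-cadherin) and Epcam, which mark epithelial and pluripotent cells alike, differed by -0.64 and 0.39 (limma adjusted p = 0.338 and 0.547). Grhl2, a transcription factor of epithelial identity, rose from 4.62 and 6.53 to 7.93 and 8.94 (0.0212). Krt19 rose from 4.29 and 4.37 to 6.55 and 5.58 (0.0241), and Krt7 at least 2.14-fold from 3.81 and 3.58 to 4.58 and 5.61 (0.0486); both are keratins of simple epithelium. Each call was lost on leaving out any of 3 arrays in turn, up to an adjusted p of 0.0775 for Grhl2 (without 2i a), 0.187 for Krt19 (without day 32 a) and 0.25 for Krt7 (without 2i b). Without 2i a the difference of Grhl2 was 1.91, and without day 32 b that of Krt7 was 0.89. Of 7 tested squamous and stress keratin genes, from 13 on the array, 3 rose and 2, Krt17 and Sfn, had a difference below 0 without being called. Those that rose were Krt6b, described above, Krt14, a keratin of basal cells, at least 2.84-fold from 3.87 and 3.96 to 5.61 and 5.40 (0.00521), and Perp, a desmosome protein, from 9.67 and 9.02 to 11.61 and 11.22 (0.0431). Krt14 was lost without day 32 a (0.0552), and Perp on leaving out any array (0.0799 to 0.278). Of the 10 squamous markers, 6 were at 4 or above on both culture arrays and 2 on both iPSC arrays, while Krt5, Trp63, Ivl and Lor, which define basal and cornified epidermis, stayed under 4 on all 4 arrays.

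Some genes of fat cells and lipid handling rose with Fabp4. Of 13 tested, 5 rose and 0 fell, with a median of 1.30, and 2 of the 5, Fabp4 and Cebpa, were called whichever array was left out. Apoe, Apoc1, Fabp3 and Scd1, further lipid-handling genes, had a difference below 0 without being called, and were named after their values were seen. Cebpa, a transcription factor of fat and liver cells, read 7.94 and 7.16 in the culture and 3.34 and 3.69 in the iPSC, at least 11.7-fold higher (limma adjusted p = 0.000943), and was called whichever array was left out. Pparg, the nuclear receptor that drives fat cell differentiation, rose from 4.36 and 4.50 to 6.99 and 6.72 (0.00531), and was lost without day 32 a (0.0552). Fabp5, the epidermal fatty acid binding protein, rose from 12.03 and 11.70 to 13.12 and 13.21 (0.0267), a call lost on leaving out any array (0.0738 to 0.181). Cd36, a fatty acid transporter, rose by 2.17 (0.0382) and was lost on leaving out any array (0.0503 to 0.273). The number that rose was 2 without day 32 a and 3 without any other single array. Of the 6 adipocyte markers on the array, 5 were at 4 or above on both culture arrays and 2 on both iPSC arrays; Adipoq, the hormone of mature fat cells, read only 4.11 and 4.41, and Retn stayed under 4.

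Some Hox genes, which record position along the body axis in fibroblasts and are mostly silent in stem cells, rose. Of the 24 genes of the Hox and cofactor list on the array 11 were tested, 4 of which rose and 0 fell. The 4 that rose lay under 4 on both iPSC arrays. A gene that is dim in the iPSC was tested only where other arrays exceeded 4, so the direction of the tested genes is set in part by that filter. Hoxc8 read 5.40 and 4.73 in the culture and 2.93 and 2.70 in the iPSC, at least 2.09-fold higher (limma adjusted p = 0.00451), and was called whichever array was left out. Hoxb4 rose from 3.47 and 3.42 to 6.10 and 5.27 (at least 3.22-fold, 0.0225), Hoxa10 from 2.92 and 2.46 to 8.02 and 4.99 (at least 5.68-fold, 0.0431), and Meis1, a Hox cofactor, from 2.82 and 2.68 to 5.10 and 4.20 (at least 1.57-fold, 0.0479). These 3 calls were lost on leaving out any array but day 32 b, with an adjusted p of 0.192, 0.289 and 0.343 without day 32 a, where the difference of Hoxa10 was 2.30. The number that rose was 5 without day 32 b and 1 without any other single array. Hoxa10 in day 32 a was well above day 32 b, and so was Hoxa9 (8.39 and 4.42 against 2.34 and 2.65), which had the largest difference of the list, 3.91, without being called (adjusted p = 0.187) and was named after its value was seen.

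Several regulators of neural crest and early mesoderm rose, with calls that were lost when some single arrays were left out. Of 10 tested, from 23 on the array, 5 rose and 0 fell, 2 had a difference below 0, and the median was 1.61. As for the Hox list, the filter sets the direction of the tested genes in part. None of the 5 was called whichever array was left out (0 of 5). Pax3, a paired-box factor of neural crest and somites, read 8.36 and 6.66 against 3.09 and 2.55, at least 11.4-fold (limma adjusted p = 0.0253). Another probe set of Pax3 differed more, at 10.57 and 9.11 against 2.33 and 1.98 (limma adjusted p over all kept probe sets = 0.00242). Foxd1, a forkhead factor of kidney stroma and craniofacial mesenchyme, read 8.92 and 7.33 against 3.24 and 3.88, at least 17.5-fold (0.0336). Tfap2a, a factor of neural crest and surface ectoderm, rose from 5.74 and 6.15 to 9.47 and 8.82 (0.0413), and Twist1, a helix-loop-helix factor of mesenchyme, from 5.84 and 6.23 to 7.64 and 8.09 (0.0254). All 4 calls were lost without day 32 a (0.207, 0.255, 0.268 and 0.0995), without 2i a (0.083 to 0.155) and without 2i b (0.0889 to 0.156), and those of Tfap2a and Twist1 also without day 32 b (0.0728 and 0.0873). The number that rose was 3 without day 32 b and 0 without any other single array. Twist2, a close relative of Twist1, rose from 1.22 and 2.89 to 6.30 and 5.62, at least 3.89-fold (0.00293), and this call held whichever array was left out. With Twist1 it made up the 2 of 9 epithelial to mesenchymal transition factors that rose, and 0 fell.

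Some endoderm and trophoblast genes were called. As for the Hox list, the filter sets the direction of the tested genes in part. Of 12 tested endoderm genes, from 19 on the array, 4 rose (33.3%, against 5.23% of all tested genes) and 0 fell. Dab2, an endocytic adaptor of primitive endoderm, read 7.91 and 7.74 against 3.59 and 4.58 (a rise of 3.74, limma adjusted p = 0.00259), and Cubn, its partner receptor in uptake of nutrients, 5.67 and 6.92 against 2.68 and 3.06 (at least 4.91-fold, 0.00278). Both were called whichever array was left out, although another probe set of each gene was not called. Gata4, a transcription factor of endoderm and heart, rose from 4 and 3.90 to 4.85 and 5.54 (0.0413), and Lamb1, a laminin chain, from 9.03 and 9.29 to 10.59 and 10.68 (0.0291), calls that were lost on leaving out any array (0.0765 to 0.213 and 0.0808 to 0.162). Gata6, Foxa2, Afp and Ttr stayed under 4 on both culture arrays. Of 8 tested trophoblast genes, from 14 on the array, 2 rose (25%) and 1 fell (12.5%), against 5.23% and 2.5% of all tested genes. Gata2 (from 4.89 and 4.77 to 6.86 and 6.74, 0.0431) and Krt7 rose, and Eomes fell. Gata2 was lost on leaving out any array (0.0987 to 0.252), Krt7 on leaving out any array but day 32 a (up to 0.25), and Eomes on leaving out any but day 32 b (up to 0.297).

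Genes of the neural list moved both ways. Of 13 tested, 1 rose and 3 fell, with a median of -0.44. The neurofilament chains Nefm and Nefh fell, Nefm from 4.57 and 4.89 to 2.93 and 2.53, at least 1.66-fold (limma adjusted p = 0.00853), and Nefh from 7.85 and 9.46 to 5.66 and 6.86 (0.0319). Olig2, a factor of oligodendrocytes and motor neurons, fell from 5.65 and 6.24 to 3.86 and 4.65 (0.019), and Fabp7, the brain fatty acid binding protein, rose at least 1.72-fold from 2.86 and 3.06 to 4.97 and 4.60 (0.00609). Calls were lost without 2i b for Nefm (0.0649), Nefh (0.189) and Olig2 (0.136), and without day 32 a for Nefh (0.252), Olig2 (0.158) and Fabp7 (0.0629). Without 2i b the difference of Nefh was -1.59.

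Signals of inflammation rose in a few genes. Of 12 tested inflammation and chemokine genes, from 25 on the array, 4 rose (33.3%, against 5.23% of all tested genes) and 1 fell. Their median was 1.89, or 0.45 with groups under 4 on both arrays set to 4. Tnfaip2, a gene induced by TNF, read 9.04 and 8.33 against 3.87 and 3.79, at least 25.7-fold (limma adjusted p = 0.00118), and Osmr, the oncostatin M receptor, 9.36 and 7.30 against 2.70 and 4.03 (a rise of 4.96, 0.00521). Both were called whichever array was left out, but Osmr was lost when the 4 compared arrays were fitted alone (0.0535), and its rise was 2.70 over the mean of its probe sets. Csf1, the macrophage growth factor, rose from 3.52 and 4.72 to 7.03 and 6.96 (0.00906), and was lost without day 32 a (0.0762). Lif, the cytokine that sustains mouse stem cells, rose from 6.17 and 5.04 to 7.58 and 7.66 (0.0119), and was lost without day 32 a (0.0834) and 2i b (0.0516). Relb, a subunit of NF-kappa-B, fell from 6.59 and 6.69 to 5.21 and 5.38 (0.0208), and was lost on leaving out any array but day 32 b (0.083 to 0.16). The other kept probe sets of Csf1 differed by 0.38, 0.845 and 0.83, none of them called, and another probe set of Lif stayed under 4 on all 4 arrays. Of 11 markers of blood cells, 9 were under 4 on both culture arrays, Ptprc (CD45), Csf1r and Adgre1 among them.

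Of 15 interferon and MHC class I genes 3 rose and 1 fell. B2m, the light chain of MHC class I, rose from 10.17 and 9.50 to 11.34 on both culture arrays (limma adjusted p = 0.0236), and Tap1, its peptide transporter, from 5.10 and 4.30 to 7.29 and 6.52 (0.0107). Gbp2, an interferon-induced GTPase, was called too (0.0386) but lay under 4 on all 4 arrays, so no level can be given. Oas1a, an interferon-induced enzyme, fell from 6.65 and 7.56 to 4.63 and 4.77 (0.0156). Without day 32 a the calls of B2m (0.158), Tap1 (0.0941) and Oas1a (0.117) were lost, and without 2i b as well (0.168, 0.0745 and 0.111); B2m was lost also without day 32 b (0.0631), and Gbp2 on leaving out any array but day 32 a (0.132 to 0.158). Of 21 genes of p53, Ink4 and CDK inhibitors 18 had a difference above 0, against 3671 of all 8599 tested genes. The 3 that rose included Cdkn2a, the Ink4a/Arf locus, from 5.53 and 5.05 to 7.20 and 6.64 (0.0182). The others were the death receptor Fas, from 2.98 and 3.40 to 6.38 and 4.55 (at least 2.76-fold, 0.0348), and Perp. Cdkn2a was lost without day 32 a (0.158) and 2i b (0.13), Fas on leaving out any array but day 32 b (0.125 to 0.189), and Perp on leaving out any array (0.0799 to 0.278). The difference of Fas was 1.36 without day 32 a.

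Some housekeeping lists held no calls, while 14.3% of the cholesterol synthesis genes were called lower, against 2.5% of all tested genes. Of 22 ribosomal protein genes, 19 of glycolysis, 25 of the respiratory chain and 17 of the lysosome, 0 were called by limma (0, 4, 0 and 1 had an unadjusted p under 0.05), and their medians lay between -0.27 and -0.04 (all tested genes, -0.11). Rps3, a ribosomal protein, read 11.38 and 11.96 in the culture and 11.93 and 12.09 in the iPSC, and Atp5b, a subunit of ATP synthase, 11.28 and 11.38 against 11.73 and 11.91; neither was called (adjusted p = 0.506 and 0.318). Of 14 cholesterol synthesis genes 0 rose and 2 fell, with a median of -0.61: Fdps from 6.71 and 6.88 to 5.04 and 5.28 (limma adjusted p = 0.04) and Sqle from 9.48 and 9.78 to 8.16 and 8.48 (0.0275). Of 23 detoxification and redox genes 3 rose against a median of -0.35: Mgst1, a microsomal glutathione transferase, from 3.81 and 5.24 to 10.93 and 9.52 (0.00226), Aldh1a1, a retinaldehyde dehydrogenase, at least 4.38-fold (0.00338), and Aldh3a1, another aldehyde dehydrogenase, by 1.68 (0.0446). Hspa1a, an inducible Hsp70, read 6.91 and 6.32 against 3.37 and 3.18, at least 6.13-fold (0.000943), and its neighbour Hspa1b rose from 9.87 and 10.17 to 11.82 and 11.72 (0.0253), the only 2 of 21 genes of the unfolded protein response and heat shock that were called; these near-identical copies may share signal. Of 18 imprinted genes 1 rose (5.56%, against 5.23% of all tested genes). This was Ndn, a growth suppressor expressed from the paternal copy, from 6.89 and 7.22 to 9.25 and 8.99 (0.00699). Mgst1, Aldh1a1 and Hspa1a were called whichever array was left out. Without day 32 a the calls of Fdps (0.253), Sqle (0.213), Aldh3a1 (0.326), Hspa1b (0.167) and Ndn (0.07) were lost, and those of Fdps, Sqle, Aldh3a1 and Hspa1b also without 2i a or 2i b (0.0801 to 0.207). Hspa1b and Fdps were further lost without day 32 b (0.0608 and 0.0782).

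Of 12 surface markers used to stage reprogramming 2 rose and 1 fell: Cd44, Prom1, a stem and progenitor cell antigen, from 5.47 and 5.41 to 8.08 and 7.56 (limma adjusted p = 0.0135), and Pecam1. Leaving out day 32 a removed all 3 calls (0.0775, 0.118 and 0.236), leaving out 2i a did so too (0.0539, 0.0611 and 0.146), and leaving out 2i b removed those of Prom1 (0.0771) and Pecam1 (0.0737).

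**Figure D3:**
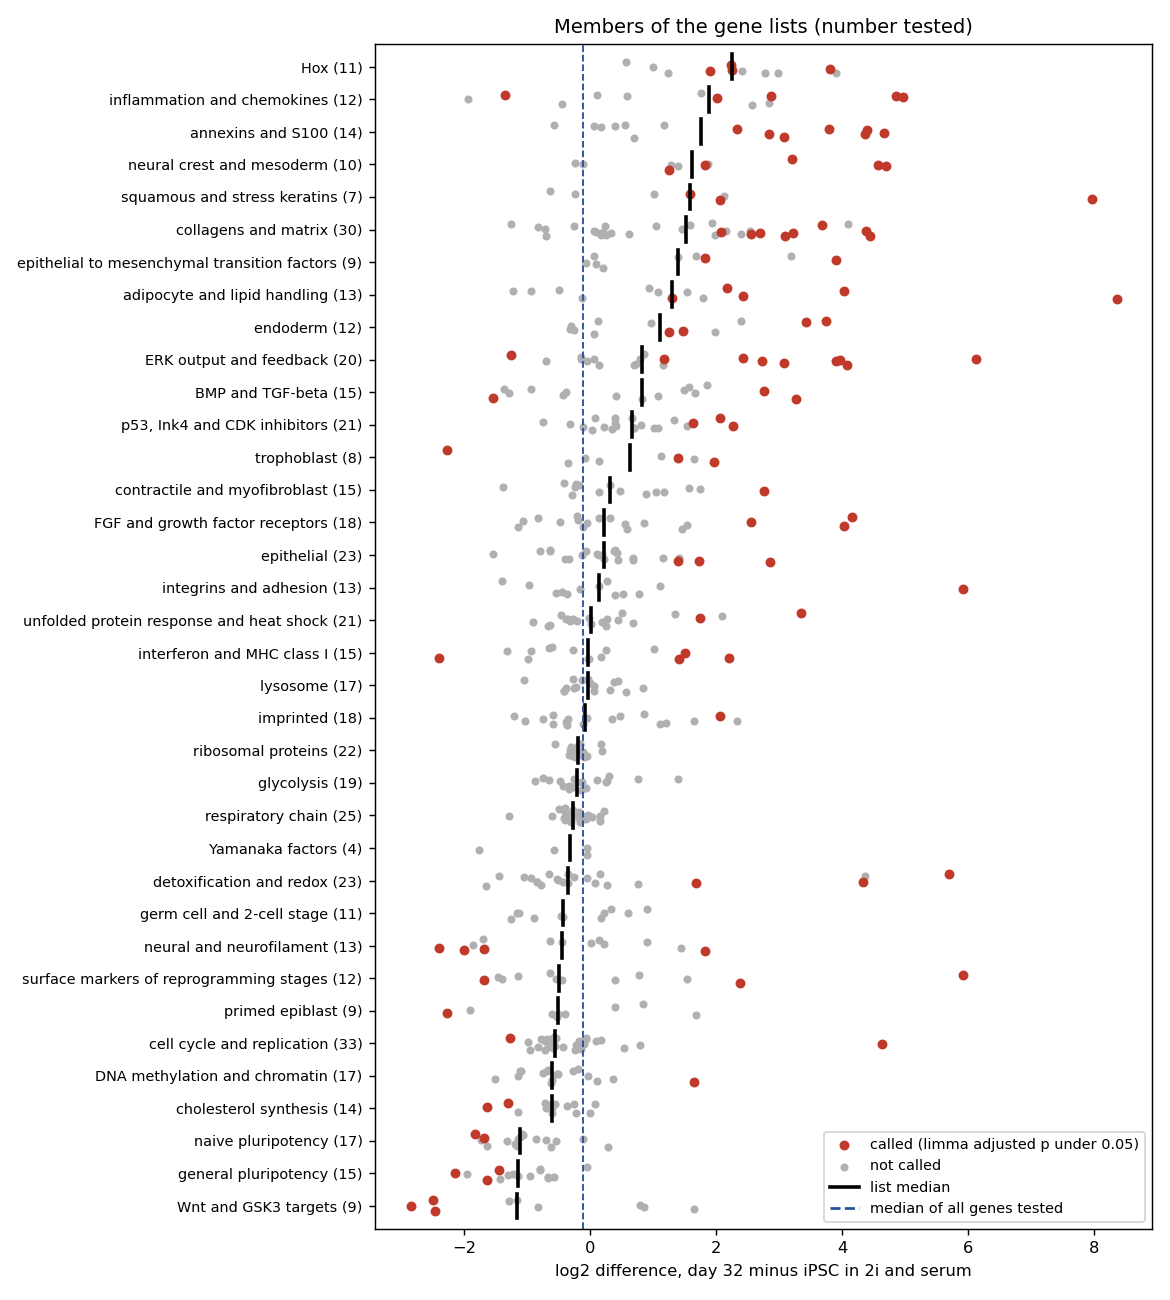
Log2 difference (day 32 culture minus iPSC in 2i and serum) of each tested member of the 36 gene lists, with called genes in red, others in grey, the list median as a black bar and the median of all tested genes (-0.11) as a dashed line; vertical scatter within a list has no meaning. The Hox list has the highest median (2.25), over the 11 of its 24 genes on the array that passed the filter, and the Wnt and GSK3 targets the lowest (-1.16). The filter sets the direction of the tested Hox genes in part.

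The sorted fractions of a day 32 culture share no array with the comparison above, but they are not independent of it. Both comparisons come from 1 fit with the same spread per gene, and deviations from the group mean correlated between same-lettered arrays across genes, at 0.33 for the unsorted culture with the Sox2-positive and 0.21 with the Sox2-negative fraction. Between these fractions 486 of the 8599 genes were called higher in the Sox2-negative (5.65%) and 590 higher in the Sox2-positive fraction (6.86%). Of the 450 genes that rose in the unsorted culture, 183 (40.7%) were called higher in the Sox2-negative fraction and 8 (1.78%) higher in the Sox2-positive one. Of the 215 that fell, 51 (23.7%) were called higher in the Sox2-positive fraction and 0 higher in the Sox2-negative fraction by limma (2 at an unadjusted p under 0.05). Across the 8599 genes the 2 differences had a Pearson r of 0.521, a description in which genes are not independent and each difference rests on 4 arrays. The sorted arrays also differ from the 4 compared here in their control probe sets, with 18S at 12.92 to 13.22 and an Actb gap of 0.05 to 0.21, so levels were not set against each other.

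Fabp4 was higher in the Sox2-negative fraction, at 12.15 and 11.25 against 5.43 and 5.14 in the Sox2-positive one (a difference of 6.42, limma adjusted p = 0.000796). Krtdap was higher there by 4.66 (0.0014) and Tnfaip2 by 5.28 (0.000474), while Krt6b, Efemp1 and S100a4, all under 4 in the Sox2-positive fraction, were at least 52.9-fold (0.00228), 21.6-fold (0.000261) and 7.41-fold (0.000796) higher. These 6 genes lay on the same side in both comparisons. The ERK genes Egr2 (1.67, adjusted p = 0.217) and Fos (-0.76, 0.409), the endocytic adaptor Dab2 (-0.41, 0.594) and the chaperone Hspa1a (-0.12, 0.823) rose in the culture but did not pass the test between the fractions. Calcrl, which rose at least 32.2-fold in the unsorted culture, was under 4 on all 4 sorted arrays, at 1.42 to 2.91. The 8 genes that rose in the culture and were higher in the Sox2-positive fraction were Grhl2, Krt7, the Notch ligand Dll1 and the Notch-binding receptor Dner, the pro-apoptotic Bcl2l11, the collagen chain Col9a3, Crebrf, a regulator of the unfolded protein response, and Igfbp4, which binds insulin-like growth factors. Of these, Dll1 alone was called in the culture whichever array was left out, with a rise of 3.23 (0.00251), while the other 7 each lost their call with 3 or 4 of the 4 arrays left out in turn (0.0605 to 0.25). The difference of Dner shrank to 1.61 without 2i b and that of Igfbp4 to 1.93 without day 32 b. Grhl2 was at least 8.03-fold and Krt7 at least 1.15-fold higher in the Sox2-positive fraction (0.00646 and 0.0184). Among the falls, Gdf3 was higher in the Sox2-positive fraction (Sox2-negative minus Sox2-positive -4.90, adjusted p = 0.000796). Zfp936, Calcoco2, Pecam1 and Tfcp2l1, all under 4 in the Sox2-negative fraction, were at least 15.8-fold (0.000583), 9.82-fold (0.00138), 9.1-fold (0.000406) and 7.24-fold (0.000537) higher in the Sox2-positive one. Cdx1, Notum and Folr1, which fell in the culture, were under 4 on all 4 sorted arrays, and Ttn did not differ past the test (0.597).

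**Figure D4:**
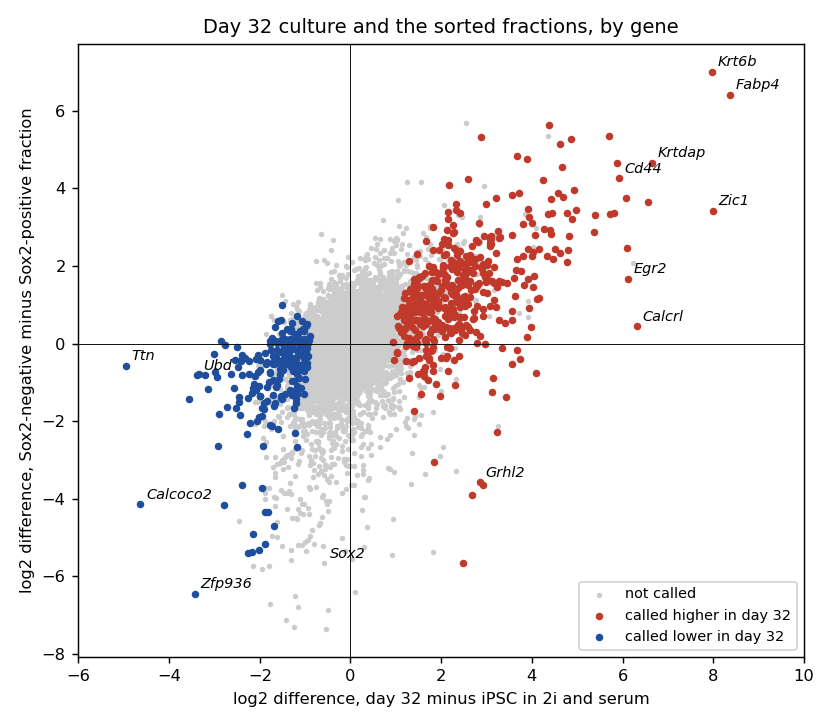
Each point is 1 of the 8599 tested genes, by its log2 difference between the day 32 culture and iPSC in 2i and serum (horizontal) and between the Sox2-negative and the Sox2-positive fraction (vertical); red and blue genes were called higher and lower in the culture. Fabp4 and Krt6b lie far up on both axes, Calcrl and Ttn far out on the horizontal axis only, and Grhl2 is raised in the culture but higher in the Sox2-positive fraction.

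The 2 arrays of the culture differed along the same genes. Of the 590 genes higher in the Sox2-positive fraction, 559 (94.7%) were lower in day 32 a than in day 32 b, against 56.9% of all tested genes. Of the 486 genes higher in the Sox2-negative fraction, 419 (86.2%) were higher in day 32 a, against 42.1% of all tested genes. Set against the iPSC mean, the Sox2-positive genes had a median of -0.95 in day 32 a and -0.18 in day 32 b, and the Sox2-negative genes 1.29 and 0.76. The naive pluripotency list lay at -1.70 in day 32 a and -0.59 in day 32 b, the general list at -1.77 and -0.42, and the Hox list at 2.65 and 1.76. Between the iPSC arrays, 42.4% of the Sox2-positive and 50.2% of the Sox2-negative genes were lower in 2i a, against 49.3% of all tested genes. In all, day 32 a was further from the iPSC mean than day 32 b for 381 of the 450 rises (84.7%) and 182 of the 215 falls (84.7%), against 67.7% of all tested genes. The replicate spread of the culture, which enters every test above, thus holds this shift.

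**Figure D5:**
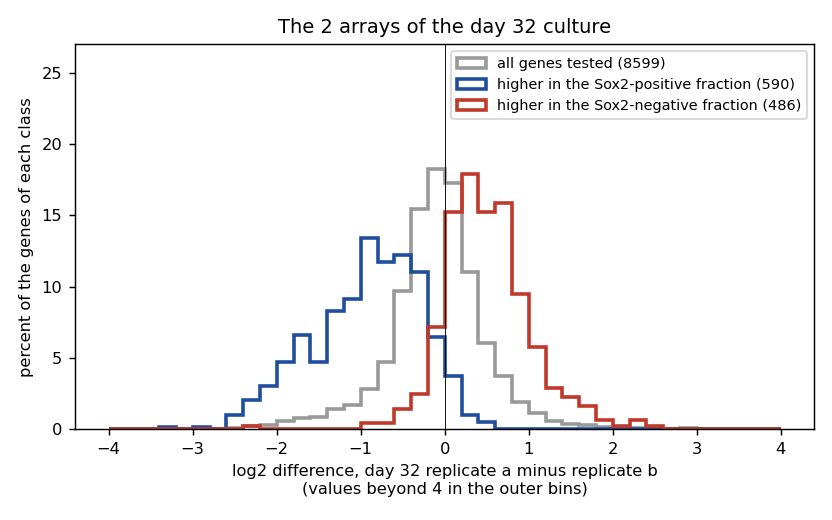
Distribution of the log2 difference between the 2 arrays of the day 32 culture (replicate a minus replicate b) over all tested genes (grey), genes higher in the Sox2-positive fraction (blue) and genes higher in the Sox2-negative fraction (red), in percent of each class. The blue curve lies mostly below 0 (94.7% of its genes) and the red one mostly above 0 (86.2%).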

How the data were processed

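RNA of 10 samples was extracted with Trizol, amplified with NuGEN Ovation kits and read on single-channel Affymetrix arrays, per the labels' protocols. The labels give a choice of such kits without assigning samples to them, so a difference in kit between the groups was not tested. Per the submitters' processing notes, the authors made the deposited log2 values with GCRMA and affy, tools for which no version is given in those notes. Of 22690 probe sets, 20380 carried 1 gene symbol, and 64 controls, 691 with several symbols and 1555 with none were left out. Probe sets that exceeded 4 (log2) on 2 or more arrays were kept. The brightest of these on average stood for its gene, for 8599 genes in all. Where more than 1 probe set of a named gene was kept (35 of 115 genes), 0 others had the opposite sign, and for 20 called genes another was not called.

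A model of all 10 arrays with a mean for each of the 5 groups was fitted with limma 3.58.1 in R 4.3.3 (5 residual and 4.08 prior degrees of freedom), so the spread is shared by all groups. Where the lower group lay under 4 on both arrays it was set to 4, and the fold is given as at least that size. The code was tested on simulated data. Alternatives were the 4 compared arrays only, quantile normalization, median centring, other filters, other ways to combine probe sets, array weights, a trended robust prior, a test against a change of 1 log2 unit, a replicate block and leaving out each array. The members, the 36 gene lists and the tests were chosen with earlier results of these data known. Named genes are the Yamanaka factors, the 12 largest rises and falls among called genes that do not overlap between groups, up to 4 called members of a list in order of p (2 members where none was called), called members against their list, and the marker genes. Genes named beyond this rule are marked as such, are the remaining called members of a list, or are the 8 called in opposite directions. Replicate letters were checked for pairing: deviations of the day 32 and iPSC arrays correlated at -0.04 across genes, so the letters were not used as pairs there. The same value was 0.33 for the unsorted and Sox2-positive and 0.21 for the unsorted and Sox2-negative day 32 arrays. Figures were drawn with matplotlib.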

Additional observations from a re-analysis of the deposited data

How the results depend on the processing

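All 665 calls kept their sign whichever of the 4 compared arrays was left out, but the number of calls did not hold: it ranged from 127 to 696, with 108 to 409 higher and 19 to 287 lower, lowest without day 32 a and highest without day 32 b (for the higher genes too). With the 4 compared arrays alone 262 genes were called (221 higher, 41 lower), with array weights 1165 (703 higher, 462 lower), and against a change of 1 log2 unit 89 (80 higher, 9 lower). Quantile normalization gave 461 calls, with 129 lower, and every kept probe set 331 lower among 884. Of 119 called genes named in the text, 50 lost their call with the 4 compared arrays alone and 31 with no filter, as did 26 of 118 under quantile normalization. Osmr and Notum, called with every single array left out, were among the 50. Over the mean of their probe sets the rises of Fabp4, Fosl1 and Dab2 were 5.23, 2.25 and 2.07, each still called. Median centring, the other filters, the mean of the probe sets and the trended robust prior moved the counts by less than 1.5 times. With a replicate block, which the labels do not justify as a pairing, 756 genes were called (519 higher, 237 lower). Of the genes followed, the difference of Myc was -1.39 without 2i a but 1.29 without 2i b and 0.05 without day 32 a, and that of Pou5f1 was 0.093 under quantile normalization, none of them called. Of 252 list medians computed under an alternative, 234 kept their sign and 18 did not, the latter in lists with a median near 0 or under a left-out array. The cause of these shifts was not tested. Values near 4 limit what can be said of the dim genes.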

Other observations

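The 2 arrays of iPSC in 2i and serum were close over all genes but differed in some mesenchymal genes. Acta2, smooth muscle actin, read 2.71 in replicate a and 8.03 in replicate b, Col3a1, a fibrillar collagen, 2.62 and 5, and Col1a1 5.07 and 6.86. Myc read 4.86 and 7.54. Pdgfrb, a receptor of mesenchymal cells, went the other way, at 7.23 and 5.53. Vim, the intermediate filament of mesenchymal and pluripotent cells, was high on both, at 12.30 and 12.95. These genes were picked out after their values were seen.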
